A study of Mus musculus with 11 samples.

Results

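Enterochromaffin cells are the serotonin-producing enteroendocrine cells of the gut epithelium. The 10 genes described here were set by name from a list covering serotonin synthesis (Tph1, Ddc), granule storage (Chga, Chgb, Slc18a1), an enterochromaffin transcription factor (Lmx1a), serotonin breakdown (Maoa, Maob) and serotonin receptors (Htr3a, Htr4). They are 10 of the 43346 genes of the count table, each matched to 1 row, and all 10 passed the low-expression filter that left 19863 genes to test. Colonic RNA came from male Swiss Webster mice of 8 to 10 weeks, of which 5 were germ-free and 6 humanized. Humanized mice had been raised germ-free and had received 300 μL of stool suspension from a single human donor at 4 to 5 weeks of age, 4 to 5 weeks before they were studied. The comparison is therefore between mice without microbiota and mice with the microbiota of 1 donor, and it has no conventionally raised group. Genes received between 39125290 and 64148538 counted reads per mouse. The libraries were made from pieces of colon rather than from sorted cells. More enterochromaffin cells, more RNA per enterochromaffin cell and a larger epithelial share of the piece therefore cannot be told apart.

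Serotonin is made from tryptophan in 2 steps. Tryptophan hydroxylase 1, encoded by Tph1, is the rate-limiting enzyme outside the nervous system, and aromatic L-amino acid decarboxylase, encoded by Ddc, completes the synthesis. A vesicular monoamine transporter loads the product into granules whose matrix is built from chromogranins, and after release it acts on receptors of neighbouring nerves, muscle and epithelium before reuptake and oxidation by monoamine oxidases. Most of the body's serotonin is made in the gut.

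The synthesis genes and both chromogranins had higher expression in humanized mouse colon. Tph1 was 1.85-fold, Chga 1.73-fold, Chgb 1.62-fold and Ddc 1.47-fold higher, each with FDR below 0.01 in edgeR's exact test with Benjamini–Hochberg correction over all tested genes. Those 4 of 10 genes stand beside 9.20% of all tested genes that were higher at this threshold. None of the 10 was lower, where 10.1% of all tested genes were, and the count of lower genes was also 0 in edgeR's quasi-likelihood test and in DESeq2, with 1 gene, Htr3a, lower at an unadjusted p below 0.05. In either direction, 19.3% of tested genes were differentially expressed. The median log2-fold change (LFC, humanized over germ-free) of the 10 genes was 0.42, and that of all tested genes was 0.01. Germ-free and humanized mice were fully separated for 3 of the 10 genes, against 18.4% of tested genes. These differences depend on how libraries are scaled. Scaling by 11 epithelial markers instead of by TMM (trimmed mean of M-values) moved the median LFC of all genes to −0.23, and Tph1 was then the single gene of the 10 below an FDR of 0.01.

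**Figure D1:**
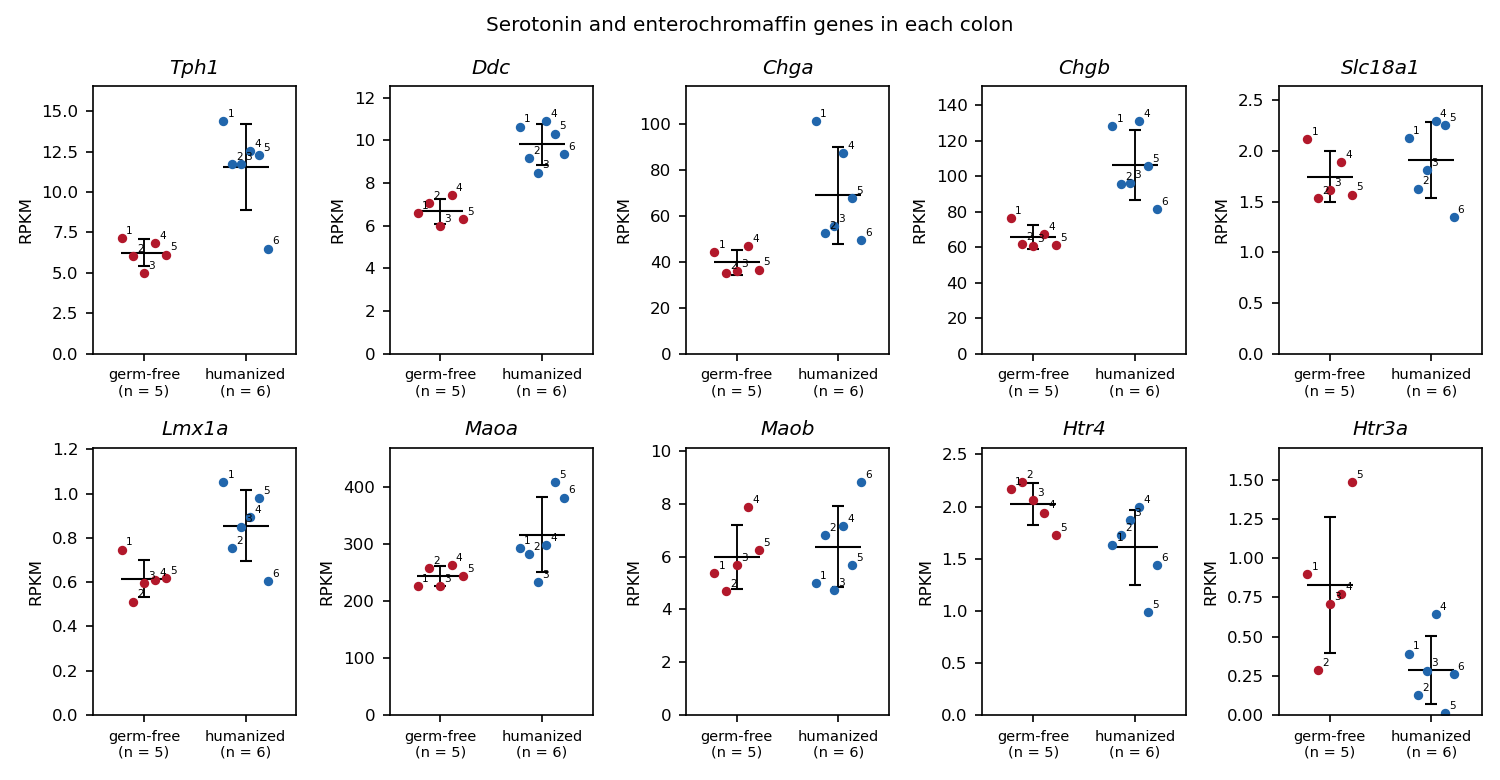
Expression (RPKM, y axis from 0) of each of the 10 genes in each colon, with the mouse number beside each point and the mean ± SD in black. Ddc, Chga and Chgb of all 6 humanized mice lie above all 5 germ-free mice, and Tph1 of humanized mouse 6 (6.50 RPKM) lies among the germ-free mice.

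Tph1 lies on chromosome 7 from 46647130 to 46672537 (mm10). Its TMM-normalized RPKM was 7.14, 6.05, 4.99, 6.83 and 6.13 in germ-free mice 1 to 5. In humanized mice the lowest value was 6.50, the median 12.0 and the highest 14.4. Humanized mouse 6 gave the lowest value, inside the germ-free range, and the other 5 humanized mice had at least 11.7. The means were 6.23 ± 0.831 (SD, n = 5) and 11.5 ± 2.65 (SD, n = 6), with an LFC of 0.89 (standard error 0.17, FDR = 7.92e-06, edgeR's exact test). An exact permutation test of log2 CPM gave a two-sided p of 0.00866, where the smallest p that 5 mice against 6 allow is 0.00216. Without humanized mouse 6 the LFC was 1.0.

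Ddc lies on chromosome 11 from 11814101 to 11898144, and its enzyme also acts in dopamine synthesis. It had 6.57, 7.06, 5.98, 7.43 and 6.29 RPKM in germ-free mice 1 to 5. Humanized mice ranged from 8.48 to 10.9 RPKM with a median of 9.83, so every humanized mouse was above every germ-free mouse. The mean rose from 6.67 ± 0.582 (SD, n = 5) to 9.81 ± 0.951 (SD, n = 6), and Ddc had the narrowest spread of the 10 genes in humanized mice, with a coefficient of variation of 9.69%. Its LFC was 0.56 (standard error 0.08, FDR = 1.03e-07, edgeR's exact test) and the exact permutation test gave p = 0.00216. With epithelial scaling the LFC was 0.32 (FDR = 0.0267).

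Chga (chromosome 12, 102554969 to 102565027) and Chgb (chromosome 2, 132781278 to 132795079) encode chromogranins A and B, acidic granule proteins used as general markers of enteroendocrine cells. Chga had 44.1, 35.1, 35.9, 46.8 and 36.5 RPKM in germ-free mice 1 to 5. In humanized mice it ran from 49.5 to 101 RPKM with a median of 61.4, above every germ-free mouse. The highest values were those of humanized mice 1 and 4, and the lowest that of humanized mouse 6. Its LFC was 0.79 (standard error 0.18, FDR = 2.75e-04, edgeR's exact test), and 0.54 with epithelial scaling (FDR = 0.0256).

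Chgb had 76.5, 61.9, 60.6, 67.4 and 61.1 RPKM in germ-free mice 1 to 5. It ran from 81.6 to 131 RPKM in humanized mice with a median of 101, and again the groups did not overlap. As for Chga, humanized mice 4 and 1 were highest and humanized mouse 6 lowest. The LFC was 0.70 (standard error 0.12, FDR = 1.73e-06, edgeR's exact test), and 0.45 with epithelial scaling (FDR = 0.0207).

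Chga and Chgb were also the most closely correlated pair across mice (given with the correlations), and their promoter stretches are shown because Chgb has a cyclic AMP response element (CRE) before its RefSeq start site and Chga a variant of it that differs in its letters. RefSeq (GRCm38.p6) gave promoter windows for 6 of the 10 genes, and the 250 bases before each start were searched on both strands for the CRE, TGACGTCA, and for the variant TGACGTAA. Capitals mark the CRE in Chgb and the variant in Chga, and both stretches are on the forward strand, chr12:102554886-102554915 for Chga and chr2:132781559-132781588 for Chgb.
Chga: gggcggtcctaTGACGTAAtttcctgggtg
Chgb: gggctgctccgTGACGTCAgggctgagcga
The variant begins 44 bases before the start of Chga, and the CRE 72 bases before that of Chgb. GENCODE M21 places the start of Chgb farther upstream, so there the Chgb stretch lies within its first exon. Of 32817 promoter windows of this length, 1.55% held TGACGTCA and 0.445% held TGACGTAA on either strand. Neither was found before the annotated starts of Tph1, Ddc, Lmx1a or Maoa, which says only that these letters are not in those windows.

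Slc18a1, on chromosome 8 from 69037711 to 69089235, encodes the vesicular monoamine transporter VMAT1 that loads serotonin into enterochromaffin granules. Germ-free mice 1 to 5 had 2.12, 1.54, 1.62, 1.89 and 1.57 RPKM, and humanized mice had 1.35 to 2.30 RPKM with a median of 1.97. The groups overlapped across nearly their whole range. The LFC was 0.13 (standard error 0.15, FDR = 0.637, edgeR's exact test), and its sign turned with total-count normalization (−0.06) and with epithelial scaling (−0.12).

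Lmx1a (chromosome 1, 167689237 to 167848741) is a homeobox transcription factor of the enterochromaffin lineage. It was read 91 to 160 times per mouse. Germ-free mice 1 to 5 had 0.747, 0.512, 0.594, 0.608 and 0.619 RPKM, and humanized mice had 0.605 to 1.05 RPKM with a median of 0.872. Humanized mouse 6 was the lowest of its group, and the other 5 were above every germ-free mouse. The LFC of 0.47 (standard error 0.16, FDR = 0.0575, edgeR's exact test) did not pass the threshold.

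**Figure D2:**
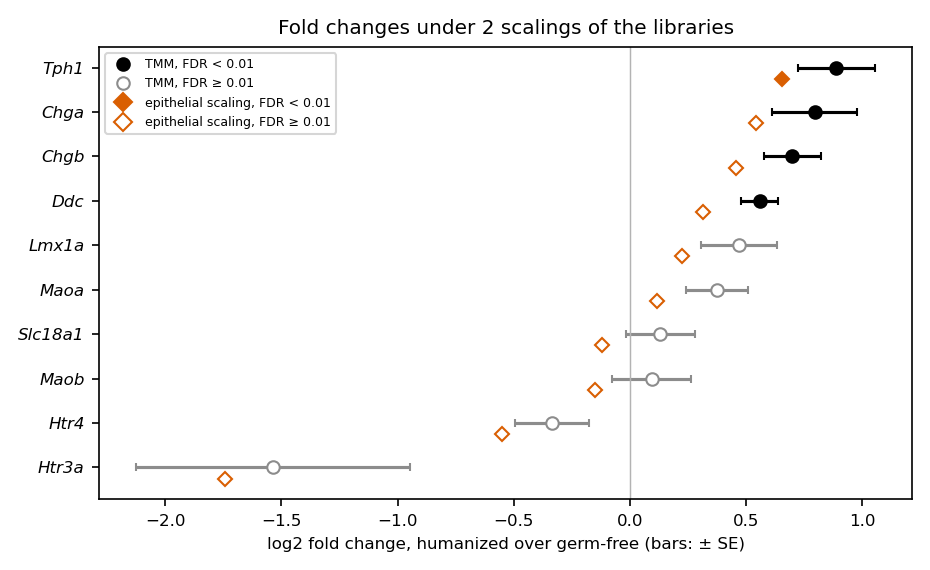
LFC of each gene (x axis, log2 scale, humanized over germ-free) from TMM-normalized counts (circles, ± SE, n = 5 and 6) and with libraries scaled to 11 epithelial markers (diamonds). Filled symbols mark FDR below 0.01. Tph1 is filled under both scalings, Chga, Chgb and Ddc under TMM alone, and Slc18a1 and Maob lie on opposite sides of 0 under the 2 scalings.

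Ratios taken within a library do not depend on the scaling of libraries, and 9 of them were compared by exact permutation of the mice with Benjamini–Hochberg adjustment over the 9. Slc18a1 fell relative to Chga. Its log2 ratio was −2.86, −2.99, −2.95, −3.10 and −3.01 in germ-free mice 1 to 5, and ran from −4.05 to −3.38 in humanized mice. The groups did not overlap, and the ratio in humanized mice was 0.644 times that in germ-free mice (exact permutation test, two-sided p = 0.00216, adjusted p = 0.0195). Tph1 over Chga differed by 0.11 on the log2 scale (exact permutation test, adjusted p = 0.592), with a larger SD in humanized (0.326) than in germ-free mice (0.134). Chgb over Chga differed by −0.07 (exact permutation test, adjusted p = 0.592), and Lmx1a over Chga by −0.30 (exact permutation test, adjusted p = 0.109).

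Against the mean log2 CPM of 11 epithelial markers, Chga was 1.43-fold and Tph1 1.54-fold higher on average in humanized mice. Neither passed after adjustment (exact permutation tests, unadjusted p = 0.0368 and adjusted p = 0.0828 for each). Humanized mouse 6 lay inside the germ-free range for both ratios, and humanized mouse 2 for that of Chga. When each mouse was left out in turn, the adjusted p ran from 0.0357 to 0.182 for Chga and from 0.0238 to 0.182 for Tph1 (exact permutation tests), and it was below 0.05 without humanized mouse 6 alone. The epithelial markers themselves had a median LFC of 0.21. Of the 11, 2 were higher at FDR below 0.01, Krt18 (LFC 0.48) and Elf3 (LFC 0.45), against 9.20% of all tested genes.

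**Figure D3:**
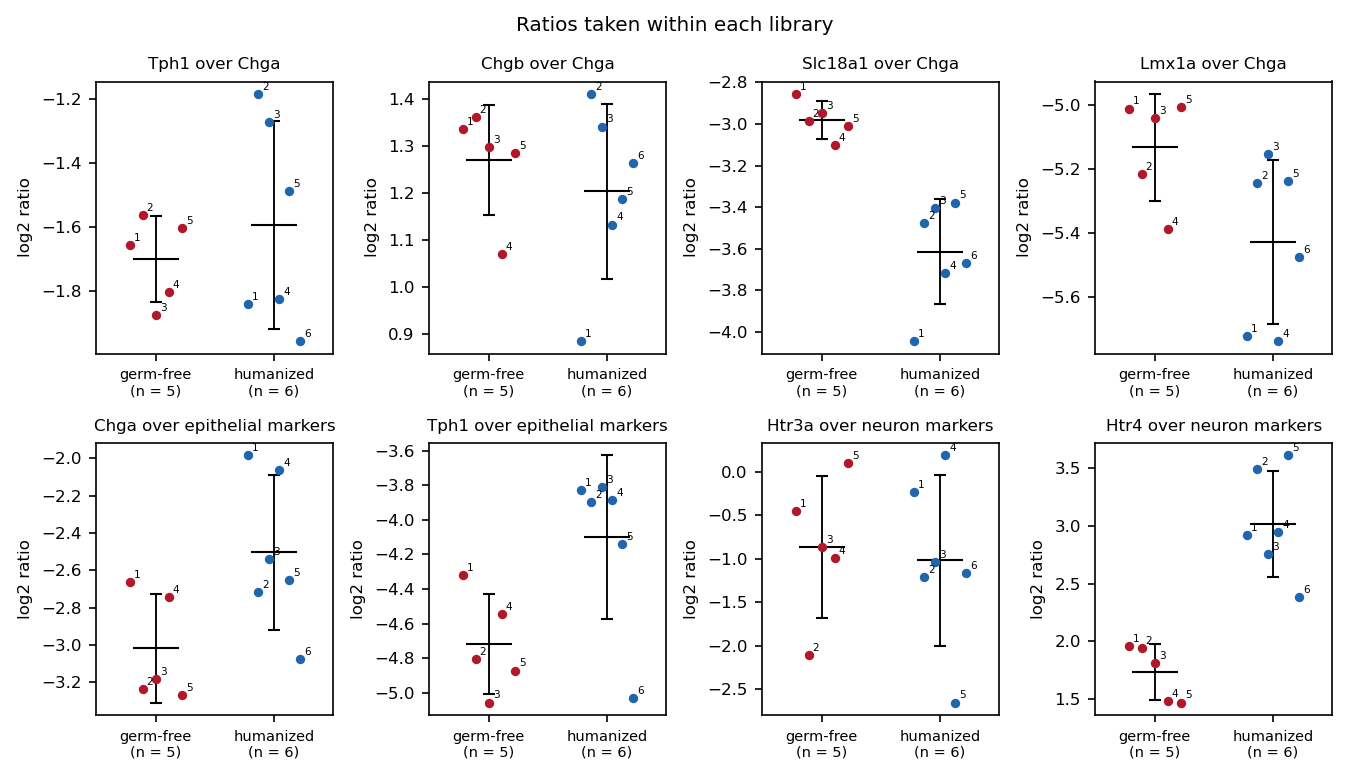
Log2 ratios of CPM within each library (y axes, which do not start at 0) by group, with mouse numbers, mean and SD. Marker lists enter as their mean log2 CPM. The groups separate for Slc18a1 over Chga and for Htr4 over neuron markers, and overlap in the other 6 panels.

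Apart from the group difference, most pairs of enterochromaffin genes were correlated from mouse to mouse. Deviations of log2 CPM from the group mean were correlated over the 11 mice for the 15 pairs of Tph1, Ddc, Chga, Chgb, Slc18a1 and Lmx1a. Pearson's r ran from 0.29 (Ddc and Lmx1a) to 0.93 (Chga and Chgb), and 11 of 15 pairs had an adjusted permutation p below 0.05. For Chga and Chgb, r was 0.927 (permutation p = 7.9e-04, adjusted p = 0.00379) and Spearman's rho was 0.954 (permutation p = 0.00119, adjusted p = 0.00605). Without the 2 mice farthest from the median of Chga, r was 0.876, and over the 6 humanized mice alone it was 0.955. For Tph1 and Lmx1a, r was 0.820 (permutation p = 0.00543, adjusted p = 0.0136) and rho was 0.827 (permutation p = 0.00344, adjusted p = 0.0104), with r = 0.812 without the 2 farthest mice. Ddc correlated less closely with Tph1 (r = 0.444, permutation p = 0.210, adjusted p = 0.225, rho = 0.564, permutation p = 0.0914). Over 16068 genes, the median r to Chga was 0.01 and the 95th percentile was 0.573. For Ddc the 95th percentile was 0.569, and its r with Tph1, Slc18a1 (0.548) and Lmx1a lay below that.

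Among those 16068 genes, the 5 whose deviations were most like Chga were Gmpr (r = 0.93), Tbc1d10a (0.93), Chgb (0.93), Ormdl3 (0.92) and Syp (0.91). Syp encodes the vesicle protein synaptophysin. The 5 most like Tph1 were March9 (r = 0.92), Bex2 (0.92), Grasp (0.91), 1700011H14Rik (0.91) and Lphn2 (0.90). These r values are the highest of many over 11 mice and are given as a description. Apart from Chgb, none of these genes was below an FDR of 0.01 between the groups.

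Monoamine oxidase A, a mitochondrial enzyme that oxidizes serotonin, was by far the most abundant product on the list. Maoa (chromosome X, 16619698 to 16687818) had 227, 258, 227, 264 and 243 RPKM in germ-free mice 1 to 5, and its mean lay at the 99.3 percentile of tested genes. In humanized mice it had 233 to 408 RPKM with a median of 295. Humanized mice 5 and 6 were highest and humanized mouse 3 lay inside the germ-free range. The LFC was 0.38 (standard error 0.13, FDR = 0.0235, edgeR's exact test), above the threshold. Leaving out each mouse in turn gave an FDR from 0.00112 to 0.0778, below the threshold without humanized mouse 3 alone (LFC 0.45). Relative to epithelial markers, Maoa differed by 0.11 on the log2 scale (exact permutation test, adjusted p = 0.354).

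Maob, which lies next to Maoa on chromosome X (16709282 to 16817366) on the opposite strand, encodes the related monoamine oxidase B. Germ-free mice 1 to 5 had 5.37, 4.69, 5.68, 7.88 and 6.24 RPKM, and humanized mice had 4.73 to 8.81 RPKM with a median of 6.25. The groups overlapped throughout. The LFC was 0.09 (standard error 0.17, FDR = 0.768, edgeR's exact test), and its sign turned with total-count normalization (−0.091), with epithelial scaling (−0.15) and without humanized mouse 6 (−0.028). The exons of the 2 genes do not overlap in GENCODE M21, and none of the 10 genes shared exon bases with another gene.

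Both receptor genes had lower means in humanized mice, and neither passed the threshold. Htr4, on chromosome 18 from 62324204 to 62467802, encodes a receptor that couples to cyclic AMP in enteric neurons, muscle and epithelium. It had 2.17, 2.23, 2.06, 1.94 and 1.73 RPKM in germ-free mice 1 to 5, and 0.985 to 1.998 RPKM with a median of 1.68 in humanized mice. Humanized mouse 5 was lowest. The LFC was −0.33 (standard error 0.16, FDR = 0.169, edgeR's exact test).

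Htr3a, on chromosome 9 from 48899214 to 48911099, encodes the obligatory subunit of the serotonin-gated ion channel of enteric neurons. It was read 118, 31, 86, 100 and 216 times in germ-free mice 1 to 5 and 1 to 52 times in humanized mice. In RPKM these were 0.899, 0.284, 0.706, 0.769 and 1.48 in germ-free mice, and 0.0101 to 0.642 with a median of 0.271 in humanized mice. The single read was in humanized mouse 5, and germ-free mouse 2, the lowest of its group, lay inside the humanized range. The LFC was −1.54 (standard error 0.59, FDR = 0.0447, edgeR's exact test). Leaving out each mouse in turn gave −1.96 (FDR = 0.00954, without humanized mouse 4) to −1.22 (FDR = 0.159, without germ-free mouse 5), and the first was the single one below the threshold.

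Most markers of enteric neurons and smooth muscle were lower in humanized mice, against 10.1% of all tested genes at FDR below 0.01. Of 11 enteric neuron markers, 9 were lower at FDR below 0.01 with a median LFC of −1.74, and the number higher was 0 in the exact test, also at an unadjusted p below 0.05, in the quasi-likelihood test and in DESeq2. Elavl4 (LFC −2.44), Prph (−2.10) and Uchl1 (−2.0) were among them, and Vip, the most abundant, had an LFC of −1.74. The summed CPM of the list was 44.3 to 69.7 in germ-free and 7.01 to 26.5 in humanized mice. All 9 smooth muscle markers were lower at FDR below 0.01 (median LFC −2.03), with a summed CPM of 814 to 2338 in germ-free and 94.8 to 842 in humanized mice. The number lower was 5 in the quasi-likelihood test and 6 without germ-free mouse 4. Of 6 glial markers, 4 were lower, led by Sox10 (LFC −2.33) and Foxd3 (LFC −2.22), while Erbb3, which epithelium also expresses, had an LFC of 0.13. The part of these markers in the levels of Htr3a and Htr4 was not tested. Each gene was set against the neuron markers within each library. Htr3a over neuron markers differed by −0.16 on the log2 scale (exact permutation test, adjusted p = 0.768), and the sign turned without germ-free mouse 5 or humanized mouse 5. Htr4 over neuron markers was 2.44-fold higher in humanized mice, although the mean of Htr4 itself was lower, because the markers fell further. Its log2 ratio was 1.47 to 1.96 in germ-free and 2.38 to 3.61 in humanized mice, with no overlap (exact permutation test, p = 0.00433, adjusted p = 0.0195).

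Levels per length spanned a wide range. In germ-free mice the order by mean RPKM was Maoa, Chgb, Chga, Ddc, Tph1, Maob, Htr4, Slc18a1, Htr3a and Lmx1a. The ranges of Ddc and Tph1, Tph1 and Maob, Htr4 and Slc18a1, and Htr3a and Lmx1a overlapped, and the other neighbours were separate. In humanized mice Tph1 (11.5 ± 2.65 RPKM) stood before Ddc (9.81 ± 0.951 RPKM), Slc18a1 before Htr4, and Lmx1a before Htr3a, each with overlapping ranges. There the ranges of Chgb and Chga also overlapped. The deposited length of Tph1 was 3682 bases, and its exons sum to 6172 bases in GENCODE M21. With that length its mean would be 3.72 RPKM in germ-free mice, below Maob, and 6.88 RPKM in humanized mice, below Ddc. GENCODE M21 starts Tph1 at 46644641 and the deposited coordinates at 46647130, so the added bases lie largely outside the deposited gene. Reads there would not be in these counts, which would make both values too low and leave the place of Tph1 undecided. Chga likewise had 1882 deposited and 2756 annotated bases. The latter would give 27.1 and 47.0 RPKM and leave it between Chgb and Ddc, with a range separate from that of Chgb in both groups. Whether the counts cover the added Chga bases is not known. Length does not enter the LFC.

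Of 13 other genes of serotonin synthesis, transport and breakdown, 11 were tested and 3 were higher at FDR below 0.01, against 9.20% of all tested genes. The number higher was 1 with total counts, with epithelial scaling and with the replicate block. Gch1, the rate-limiting enzyme for tetrahydrobiopterin, the cofactor of tryptophan hydroxylase, had 1.29 to 1.55 RPKM in germ-free and 2.26 to 3.71 RPKM in humanized mice. Its LFC was 1.11 (standard error 0.13, FDR = 1.11e-09, edgeR's exact test), and it rose without overlap between the groups. Pts, the next enzyme of the same cofactor pathway, had an LFC of 0.33 (FDR = 4.49e-04), and Aldh2, an aldehyde dehydrogenase of mitochondria, an LFC of 0.47 (FDR = 0.00455). None was lower, with 2 at an unadjusted p below 0.05 and 0 in the quasi-likelihood test and DESeq2. The number lower was 2 with total counts or epithelial scaling, and 1 with the replicate block or without humanized mouse 4 or 6. Slc6a4, the serotonin reuptake transporter, was named after its values were seen. It had 3.45 ± 0.220 RPKM (SD, n = 5) in germ-free and 2.61 ± 0.798 RPKM (SD, n = 6) in humanized mice (LFC −0.40, FDR = 0.0974). Tph2, the neuronal tryptophan hydroxylase, was read at most 2 times per mouse and was not tested.

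Of 12 serotonin receptor genes other than Htr4 and Htr3a, 5 were tested. Htr1b (LFC −1.87, FDR = 7.96e-04) and Htr2b (LFC −1.06, FDR = 0.00198) were lower, against 10.1% of all tested genes. None was higher, also in the quasi-likelihood test, in DESeq2 and at an unadjusted p below 0.05. With the quasi-likelihood test no receptor gene was below the threshold, and 1 was called without germ-free mouse 2, without germ-free mouse 4, or with at least 10 counts required in every mouse. Htr1b was read as few as 2 times in a mouse, and both genes have known sites of expression in vessels, nerves or muscle.

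Of 12 further genes of granules and vesicles (granins, prohormone-processing enzymes and proteins of vesicle release), 7 were lower in humanized mice and 5 did not pass the threshold, against 10.1% of all tested genes lower. None was higher, with 1 at an unadjusted p below 0.05, 0 in the quasi-likelihood test and DESeq2, and 1 called without humanized mouse 6. Pcsk1, a prohormone convertase named after its values were seen, had an LFC of 0.38 (FDR = 0.0506). Pcsk2, another convertase, had the lowest LFC (−2.63, FDR = 1.22e-06), followed by the granins Scg2 (−2.39, FDR = 8.85e-06) and Scg3 (−1.21, FDR = 3.51e-07). Cpe, carboxypeptidase E, was the most abundant, with 19.0 to 40.0 RPKM in germ-free and 9.24 to 15.7 RPKM in humanized mice (LFC −1.06, FDR = 7.34e-07). In the same pieces of colon the enteric neuron markers also fell (9 of 11 lower, median LFC −1.74). Which cells the fall of the granule genes came from was not tested.

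Of 12 other genes used as markers or sensors of enterochromaffin cells, 11 were tested, and 2 were lower, 1 was higher and 8 did not pass the threshold. Over all tested genes 10.1% were lower and 9.20% higher, so the single higher gene is near the background share. The ion channel genes Trpa1 (LFC −1.93, FDR = 2.64e-08) and Piezo2 (LFC −1.80, FDR = 1.38e-05), which sensory and stromal cells also express, were lower without overlap between the groups. Both calls were lost with the replicate block. Adra2a, an adrenergic receptor gene, was higher (LFC 0.70, FDR = 0.00717). No gene of this list was called higher when germ-free mouse 1, 3, 4 or 5, or humanized mouse 4 or 6, was left out. The same held in the quasi-likelihood test, with total counts, with epithelial scaling and with the replicate block. Of 12 transcription factor genes of enteroendocrine cells, 11 were not below the threshold, among them the most abundant, Foxa1 (LFC 0.09), and Mnx1 was lower (LFC −0.85, FDR = 0.00405). A count of 1 in 12 lower is also near the background share, and the Mnx1 call was lost in the quasi-likelihood test and when germ-free mouse 1, 3, 4 or 5 or humanized mouse 1 was left out. None was higher, with 1 at an unadjusted p below 0.05 and 0 in the quasi-likelihood test and DESeq2. Among hormone genes of other enteroendocrine cells, Cck (LFC −3.17), Insl5 (−3.12), Gcg (−1.81) and Sst (−1.50) fell, each with FDR below 0.01, as 4 of the 8 tested. Sct, encoding secretin, was the single one that rose (LFC 0.90, FDR = 7.08e-04), and this call was lost with the replicate block.

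Mast cells also express Tph1. Of 11 mast cell markers, 7 were tested and none was higher or lower at FDR below 0.01, with the quasi-likelihood test and DESeq2 also at 0, and with none higher and 1 lower at an unadjusted p below 0.05. With total counts, epithelial scaling or no filter, 1 was called lower. Their median LFC was −0.48. Their summed CPM, carried mostly by Kit, which the interstitial cells of the gut also express, was 161 to 193 in germ-free and 110 to 172 in humanized mice. Tpsab1 had 0 reads in all 6 humanized mice and 0 to 35 in germ-free mice.

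**Figure D4:**
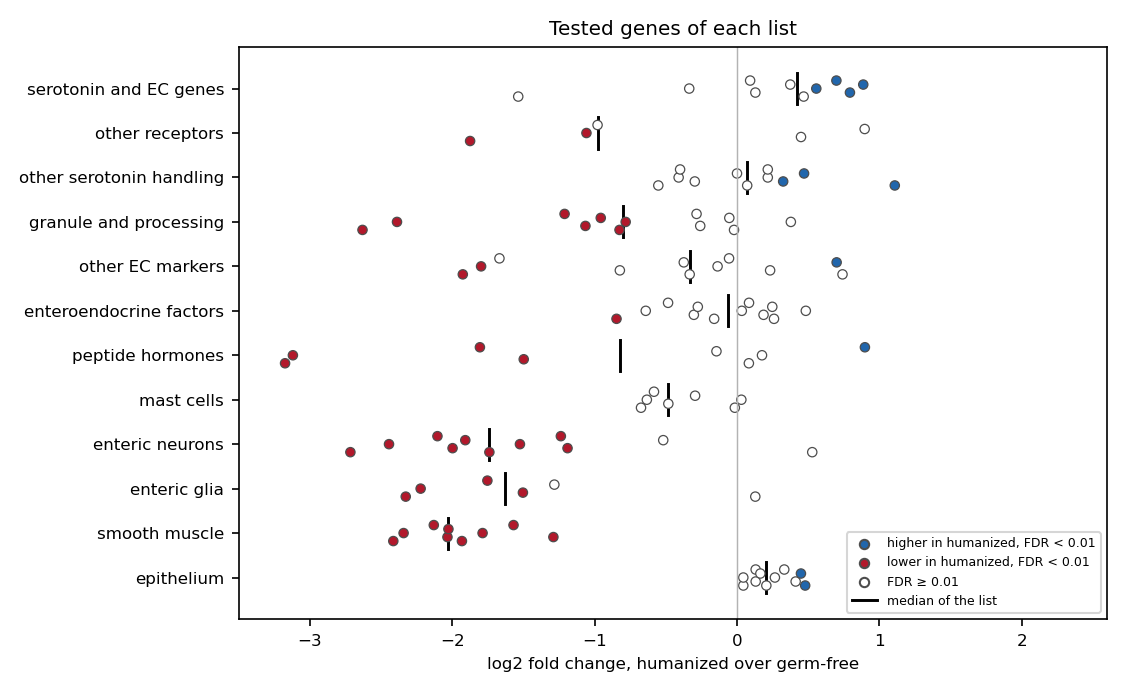
LFC of every tested gene of each list (x axis, log2 scale, humanized over germ-free), coloured where FDR is below 0.01, with the median of each list as a black bar. The 4 filled points of the serotonin and enterochromaffin (EC) genes lie right of 0, while called neuron, glia, muscle and granule genes lie left of 0.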

How the data were processed

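Colonic polyA RNA of 11 mice was sequenced with 101 bp paired-end reads. Per the labels and methods, the authors aligned reads to mm10 with TopHat (version 2.1.0, running Bowtie version 2.2.3), counted reads per gene with featureCounts of Subread 1.4.6-p5, and deposited raw counts of 43346 genes, 1 column per mouse. The library kit does not keep strand, and the counting setting for strand is not given in the sources used here. The deposited table also gives a length per gene, which equalled the summed exon bases of GENCODE M21, untranslated parts included, for 6 of the 10 genes and not for Tph1, Chga, Htr4 and Htr3a. RPKM with the annotated lengths was an alternative added after the data were seen. The annotation release used for counting is not given in the sources used here.

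Tests followed the study's methods, in edgeR 4.0.16 under R 4.3.3: filterByExpr at its defaults (minimum count 10), TMM, estimateDisp and the exact test, with FDR below 0.01. Standard errors come from the quasi-likelihood fit. RPKM used TMM-scaled libraries and the deposited lengths. For ratios, CPM was taken on the log2 scale after adding a prior count of 2. DESeq2 1.42.0 was an alternative. On simulated counts of this comparison over 19630 genes, the exact test found 94 of 95 genes changed by an absolute LFC of 2 and 70 of 99 changed by 1, with 6 false calls. Few genes were changed there, equally up and down, so the simulation does not cover the dependence on library scaling. The labels number the mice within a group without naming a shared litter, batch or day, and every mouse is a separate animal. Replicates differed by more than counting noise.

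The 10 genes, the related lists and the tests were chosen with earlier results of these data known. Text names all 10 genes, up to 4 genes below the threshold with the largest absolute LFC and the most abundant tested gene in related lists, and the 5 genes most like Tph1 and Chga (mean CPM of at least 1). Sct, Slc6a4, Pcsk1, Tph2 and Tpsab1 were named after their values were seen, and 1 gene that the rule names is not reported here.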

Additional observations from a re-analysis of the deposited data

Results flagged for a closer look

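In 46 sets of values (10 genes and 13 ratios in each group), 4 had a mouse whose distance from its nearest neighbour was large for the range of its group, where chance alone gives about 1 in 20. Tph1 in humanized mouse 6 was 6.50 RPKM, and the next lowest humanized mouse had 11.7 RPKM. The same mouse had a log2 ratio of Tph1 to epithelial markers of −5.03, with the next at −4.14. Its log2 ratio of Htr4 to smooth muscle markers was −3.30, with the next at −1.49, and the mean log2 CPM of its muscle markers, 6.06, was the highest among humanized mice. In germ-free mouse 4, the log2 ratio of Chgb to Chga was 1.07, and the next lowest germ-free mouse had 1.29.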

How the results depend on the processing

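The number of the 10 genes higher in humanized mice at FDR below 0.01 was 4 with the quasi-likelihood test, DESeq2, RLE, upper-quartile or total-count normalization and either filter, and 4 to 5 when each mouse was left out in turn. It was 1 with epithelial scaling and 0 when an absolute LFC above 1 was also required. The number lower was 1 at FDR below 0.05 (Htr3a) and 0 to 1 when each mouse was left out. Epithelial scaling gave LFC values of 0.65 for Tph1 (FDR = 0.00978), 0.54 for Chga, 0.45 for Chgb and 0.32 for Ddc, and moved the median LFC of all genes to −0.23, with 565 genes higher and 3184 lower, against 1827 and 1999 with TMM. Total counts moved that median to −0.18, with 773 genes higher and 3609 lower. Reversed signs were found for Slc18a1 (−0.06 with total counts, −0.12 with epithelial scaling), for Maob (−0.091 with total counts, −0.15 with epithelial scaling, −0.021 with the replicate block, and −0.028 to 0.213 when each mouse was left out, below 0 without humanized mouse 6) and for the log2 ratio of Htr3a to neuron markers (−0.469 to 0.169 when each mouse was left out, above 0 without germ-free mouse 5, at 0.082, and without humanized mouse 5). The causes were not tested. Leaving out a mouse gave an LFC of Tph1 from 0.81 to 1.0.

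Mice with the same number in the labels are different animals. Their deviations correlated between −0.205 and 0.138 over genes, and 2 of 5 germ-free mice were closest to the humanized mouse of their own number. So few pairs cannot show whether the numbers pair the mice. The replicate block in the quasi-likelihood fit left 4 of the 10 genes higher and 0 lower, and over all genes 506 higher and 506 lower, against 1401 and 1298 without the block. Humanized mouse 6 has no germ-free mouse of its number, so it adds nothing to the group difference in the block fit. The LFC of Tph1 was 1.015 with the block, against 0.888 in the main test.

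Of 440 counts of called genes in the related lists, 46 moved by over 1.5 times, 34 of them down. Among genes called lower, smooth muscle went from 9 to 5 and receptors from 2 to 0 with the quasi-likelihood test, neurons from 9 to 5 and glia from 4 to 1 with at least 10 counts in every mouse, and neurons from 9 to 4 and granule genes from 7 to 4 with the block. Synthesis and breakdown genes called higher went from 3 to 1 and those called lower from 0 to 2 with total counts and with epithelial scaling. At this depth Htr3a, with 1 read in a mouse, is the least precise of the 10.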

Other observations

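A further 4 ratios were chosen after the counts had been seen and adjusted over these 4. All 9 smooth muscle markers were lower in humanized mice (median LFC −2.03). A ratio over them is therefore higher for any gene that fell less, and its test does not show a change in that gene. Maob, with an LFC of 0.09, was 4.84-fold higher relative to these markers in humanized mice. Its log2 ratio was −3.07 to −2.04 in germ-free and −1.44 to 1.20 in humanized mice, with no overlap (exact permutation test, p = 0.00433, adjusted p = 0.0173). Htr4 relative to the same markers was 3.56-fold higher (exact permutation test, adjusted p = 0.0216), with overlap through humanized mouse 6, and the adjusted p rose to between 0.0571 and 0.0667 when any mouse other than germ-free mouse 1 or humanized mouse 6 was left out. Htr3a relative to them differed by 0.39 on the log2 scale (exact permutation test, adjusted p = 0.582), and Ddc relative to Chga by −0.20 (exact permutation test, adjusted p = 0.341).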
